A study of Mus musculus with 9 samples.

Results

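Smpd3, which encodes neutral sphingomyelinase 2, was examined with 9 other genes of sphingolipid metabolism (Smpd2, Sgms1, Sgms2, Sphk1, Sphk2, Sgpl1, Cers2, Cers5 and Cers6) in primary chondrocytes cultured from mouse articular cartilage. Members were found by gene symbol among the 55450 genes listed for each library. All 10 were present, each under 1 Ensembl identifier, and all 10 passed a filter of at least 1 FPKM (fragments scaled to exon length and to library size) in at least 3 of the 9 libraries, which 12441 genes passed. The set was chosen by gene function around Smpd3 and with the measured values of these libraries already known. Which of those values put Smpd3 at its head is not recorded, so all 3 comparisons between groups count as used in the choice. The values of the 10 members are therefore given without p-values, and calls and ranks of members are a description only.

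There were 3 groups of 3 libraries. Cells of the bleomycin plus ST045849 group were given the DNA-damaging agent bleomycin (50 µg/mL) over 24 h and then spent 5 days in medium with 20 µM ST045849, which inhibits O-GlcNAc transferase. Cells of the bleomycin group received the same bleomycin exposure and then DMSO, and cells of the vehicle group received PBS in place of bleomycin and then DMSO. Every group had been treated with hyaluronidase beforehand (4 U/mL, 4 h) and was grown at 3% oxygen with 10% serum. A group with ST045849 but no bleomycin was not analysed here. The labels do not say whether libraries of a group came from separate animals or cultures, so errors and p-values measure the spread between these libraries, which may be technical.

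Sphingolipids are membrane lipids built on a sphingoid base, and ceramide is the compound through which their synthesis and breakdown pass. Ceramide synthases join a sphingoid base to a fatty acid, sphingomyelin synthases add a phosphocholine head group to ceramide, and sphingomyelinases remove it again. Ceramidases release sphingosine, which sphingosine kinases phosphorylate to sphingosine 1-phosphate, a signalling lipid that is finally cut by sphingosine 1-phosphate lyase. Smpd3 is known for a role in the skeleton: mice that lack a working Smpd3 gene have short, deformed limbs with poorly mineralised bone.

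The FPKM values of a library summed to between 340303 and 483953. Steps between low FPKM values placed library depth at 0.875 to 1.004 times that of vehicle library 1. Log2(FPKM + 1) values of 2 libraries of the same group correlated across genes at 0.936 to 0.954 in the bleomycin plus ST045849 group, 0.970 to 0.974 in the bleomycin group and 0.961 to 0.979 in the vehicle group. All 8 chondrocyte markers examined passed the filter, and their summed level was 14769 to 21589 FPKM with bleomycin plus ST045849, 18087 to 26147 FPKM with bleomycin and 23885 to 34096 FPKM with vehicle. The 9 macrophage markers summed to 11.8 to 17.8, 10.8 to 12.6 and 3.03 to 5.71 FPKM in the same order of groups, with C1qb, C1qc and Tyrobp at 0 in all 9 libraries, and the 4 endothelial markers stayed under 1 FPKM in sum. The 8 markers of hypertrophic chondrocytes and osteoblasts summed to 184 to 646 FPKM with bleomycin plus ST045849, 365 to 666 FPKM with bleomycin and 129 to 209 FPKM with vehicle. Mmp13 made up most of this sum in both bleomycin groups (means 342, 369 and 72.0 FPKM in that order of groups), while Col10a1 averaged 23.5, 38.9 and 58.1 FPKM. Against vehicle 5 of the 8 were higher and 3 lower in either bleomycin group. With bleomycin plus ST045849 against bleomycin 1 was higher and 7 were lower. The 6 fibroblast or synovial markers summed to 1527 to 2888, 2673 to 3754 and 1740 to 2411 FPKM. In bulk RNA, fewer cells of a type and less RNA per cell cannot be told apart, and the part of cell makeup in the results below was not tested. Ogt, which encodes the enzyme that ST045849 inhibits, averaged 18.7 FPKM with bleomycin plus ST045849 and 36.9 FPKM with bleomycin (log2 difference -1.01 ± 0.33, limma adjusted p = 0.203). With vehicle Ogt averaged 41.9 FPKM, and all ST045849 libraries (10.3 to 23.4 FPKM) lay below all others (28.1 FPKM or more). Groups lay apart in either direction for 25.2% of all tested genes against bleomycin and 27.7% against vehicle. An inhibitor of the protein need not change this RNA, and the cause of the lower Ogt level was not tested.

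Smpd3 was low in all 3 libraries with ST045849 and high in the other 6. It stood at 28.6, 13.7 and 10.9 FPKM in bleomycin plus ST045849 libraries 1, 2 and 3, at 72.1, 101 and 58.5 FPKM in bleomycin libraries 1, 2 and 3, and at 60.6, 123 and 96.6 FPKM in vehicle libraries 1, 2 and 3. The highest value with ST045849 thus lay below the lowest value without it, while bleomycin and vehicle overlapped. Means were 17.7 ± 9.52, 77.1 ± 21.5 and 93.4 ± 31.4 FPKM in that order of groups (SD, n = 3 each). Against bleomycin the ST045849 libraries were lower 4.35-fold in mean FPKM, and against vehicle 5.27-fold. On the log2(FPKM + 1) scale, on which all differences are given and which compresses changes of low-level genes, the difference was -2.14 ± 0.37 against bleomycin (SE from limma) with a 95% interval of -2.95 to -1.33. Against vehicle it was -2.39 ± 0.37 with an interval of -3.20 to -1.58. Among the 12441 tested genes only 5 had a more negative difference against bleomycin and only 3 against vehicle, so Smpd3 held rank 6 and rank 4 from the bottom. Bleomycin against vehicle gave -0.25 ± 0.37 for Smpd3, with an interval of -1.06 to 0.56. These comparisons share libraries and are not independent of each other. Levels of some chondrocyte markers ran with Smpd3: 6 of 8 (Col2a1, Col9a1, Col11a1, Acan, Matn3 and Sox9) were lower in mean level with bleomycin plus ST045849 than in either other group and correlated with Smpd3 over the 9 libraries at r = 0.75 to 0.93, while Matn1 and Comp were higher (r = -0.17 and -0.40). Matn3, a cartilage matrix protein gene, averaged 44.6, 95.7 and 150 FPKM with bleomycin plus ST045849, bleomycin and vehicle, and the aggrecan gene Acan 412, 619 and 1275 FPKM. Matn1 and Comp had the least exon sequence of the 8 (2001 and 2967 bases, against 3014 to 12744 bases in the other 6). These marker levels are given without correction for the trend on gene length described below. The limma test called 0 of the 8 for bleomycin plus ST045849 against bleomycin and 3 as lower against vehicle, beside 1.74% of all genes called lower there. The part of these marker levels in the level of Smpd3 was not tested.

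**Figure D1:**
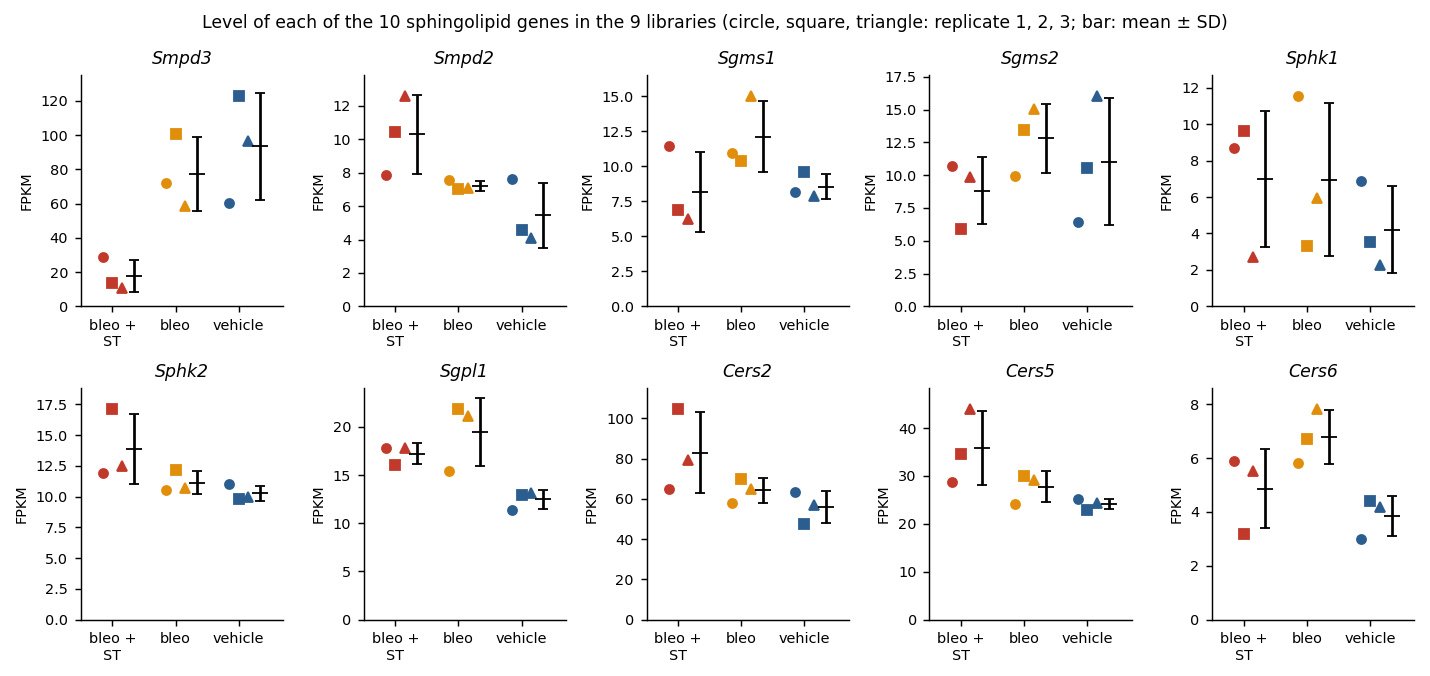
FPKM (y axis, from 0) of each of the 10 genes in the 3 libraries of each group (bleo + ST, bleomycin plus ST045849; bleo, bleomycin; circles, squares and triangles for replicates 1, 2 and 3), with the mean and SD as black bars. Smpd3 lies between 10.9 and 28.6 FPKM in the 3 ST045849 libraries and between 58.5 and 123 FPKM in the other 6. Of the other members, Sgms2 and Sphk1 overlap between groups in all 3 comparisons.

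The gap of Smpd3 was present within each replicate number. ST045849 library 1 differed from bleomycin library 1 by -1.30, library 2 from library 2 by -2.79 and library 3 from library 3 by -2.32. Replicate 1 thus had the smallest gap, and without ST045849 library 1 the difference against bleomycin was -2.53. Leaving out any other single library gave between -2.32 and -1.87. Between these 2 groups, libraries with the same number deviated together from their group means (r of at least 0.466 across genes), and a fit of the 2 groups paired by number gave -2.14 ± 0.26. Slopes of level on gene length differed between libraries, also within groups. They were -0.05, -0.82 and -0.58 log2 units per 10-fold of exon length in ST045849 libraries 1, 2 and 3. In the bleomycin libraries they were 0.21, 0.01 and 0.19, and in the vehicle libraries -0.36, 0.22 and 0.13. After each library's length trend was removed, the paired difference of Smpd3 was -2.05 ± 0.25. Smpd3 has 5232 bases of exon on chromosome 8 (106252548 to 106337988 on the minus strand in GRCm38), of which 4.72% lie within exons of Prmt7 on the opposite strand. Prmt7 itself averaged 8.29, 6.80 and 7.16 FPKM with bleomycin plus ST045849, bleomycin and vehicle.

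The members' counts stand beside those of all genes. With bleomycin plus ST045849 against bleomycin, 0 of 10 members were called by limma at an adjusted p under 0.05, as were 0% of all 12441 genes, although 2804 genes and 2 members had an unadjusted p under 0.05. The paired fit of these 2 groups called 1 member, Smpd3, as lower, beside 19.3% of all genes, and with the length trend removed it called Smpd3 alone among the members, beside 1.28% of 12437 genes. Without ST045849 library 1 the unpaired fit called 2225 genes and, among the members, Smpd3 and Sgms1, both lower. Against vehicle, Smpd3 was again the 1 member called for bleomycin plus ST045849, beside 9.85% of all genes called in either direction and 1.74% called lower. Smpd2 was also called there, as higher, without vehicle library 1 (beside 1883 genes called in all) and with the length trend removed (beside 1285). Smpd2, Cers2 and Cers5 were called as higher without ST045849 library 1, where 3060 genes were called in all. Bleomycin against vehicle called 0 of 10 members and 4.88% of all genes, with 2 members at an unadjusted p under 0.05. Cers6 was called as higher (0.65 ± 0.13) only under 1 of 18 alternatives, a replicate block with the length trend removed, where 1361 genes were called in all. The 3 libraries of each group lay apart for 2 members with bleomycin plus ST045849 against bleomycin (25.2% of all genes), for 6 members against vehicle (27.7%) and for 3 members with bleomycin against vehicle (28% of all genes). Since the members were chosen with these comparisons known, these counts and calls are a description only, as are the ranks of Smpd3 above. They give no support for a change of any member.

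**Figure D2:**
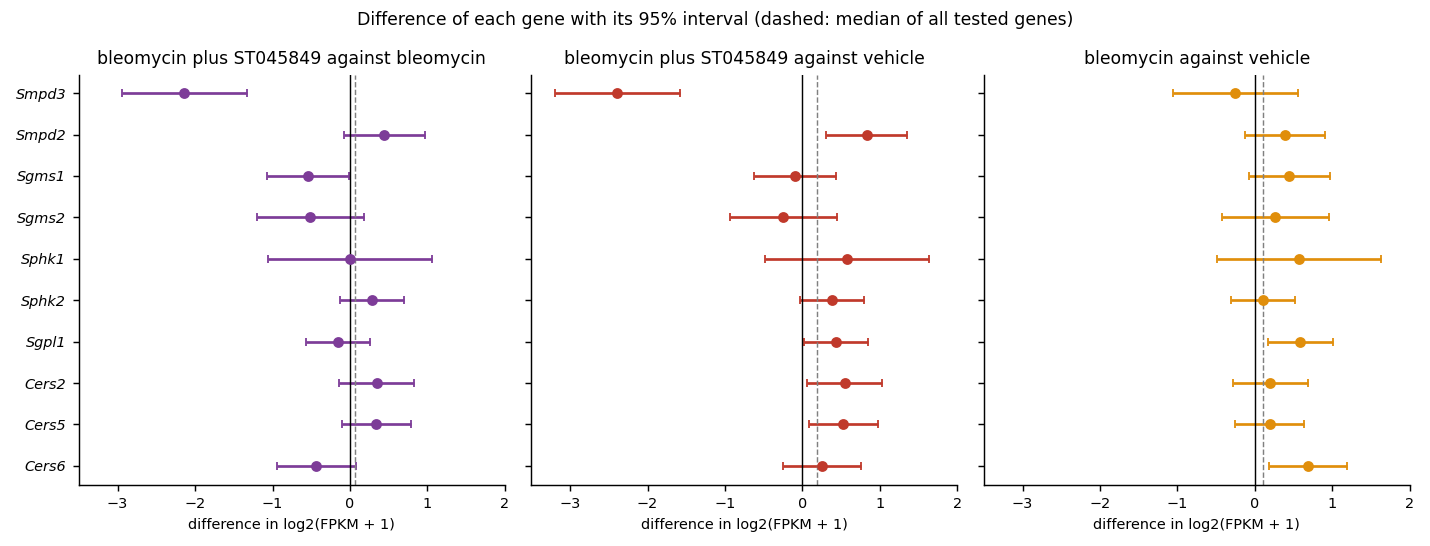
Difference in log2(FPKM + 1) of each gene (x axis) in the 3 comparisons, with its 95% interval from limma (n = 3 libraries a group); the dashed line is the median of all tested genes. Smpd3 lies at -2.14 and -2.39 in the comparisons that involve ST045849, and every other member lies between -0.54 and 0.83 in all 3.

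Smpd2, which encodes neutral sphingomyelinase 1, was highest where Smpd3 was lowest. It stood at 7.87, 10.4 and 12.6 FPKM in bleomycin plus ST045849 libraries 1, 2 and 3, at 7.54, 7.0 and 7.07 FPKM in bleomycin libraries and at 7.65, 4.59 and 4.08 FPKM in vehicle libraries. The ST045849 libraries lay above all others, by a narrow margin for replicate 1. The difference was 0.44 ± 0.24 against bleomycin and 0.83 ± 0.24 against vehicle, and 0.39 ± 0.24 for bleomycin against vehicle. On the opposite strand Mical1 shares 20.3% of the exon sequence of Smpd2. It averaged 20.2 ± 4.97, 16.7 ± 0.82 and 14.9 ± 2.14 FPKM with bleomycin plus ST045849, bleomycin and vehicle, and since the counting is not stated to have used strand, the value of Smpd2 is uncertain to that extent.

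The share of Smpd3 among sphingomyelinase transcripts was lowest with ST045849. FPKM is a level per exon length, but slopes on exon length differed between libraries, so levels of different genes can be set side by side only roughly. The shares given here were not corrected for that trend. Of the summed FPKM of Smpd1, Smpd2, Smpd3 and Smpd4, Smpd3 took 30.6, 15.2 and 14.2% in the ST045849 libraries, 55.3, 62.2 and 52.7% in the bleomycin libraries and 58.5, 77.1 and 73.4% in the vehicle libraries. Smpd1, which encodes the acid sphingomyelinase of lysosomes, averaged 53.3 ± 6.0 FPKM with bleomycin plus ST045849, 44.2 ± 4.41 FPKM with bleomycin and 27.5 ± 2.55 FPKM with vehicle. The first of these was above the mean of Smpd3 in the same libraries (17.7 FPKM), while in the other groups Smpd3 was the higher of this pair in every library. Smpd4, a further neutral sphingomyelinase, averaged 5.38, 5.93 and 5.30 FPKM in the same order of groups.

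**Figure D3:**
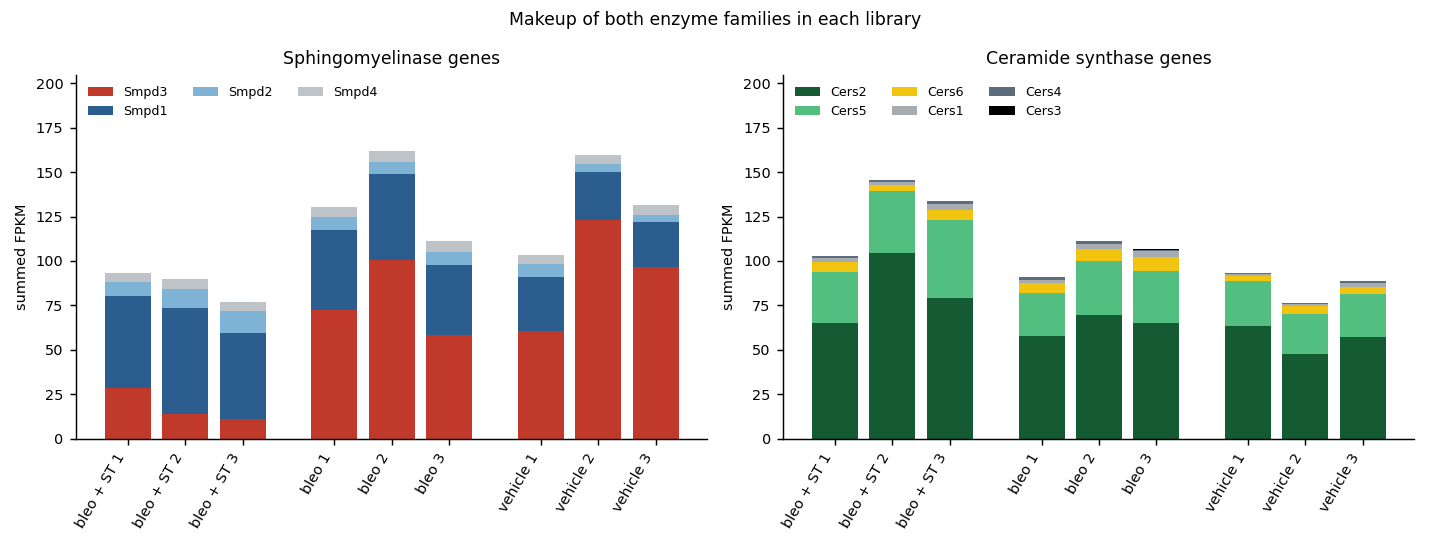
Summed FPKM (y axis, from 0) of the sphingomyelinase genes (left) and ceramide synthase genes (right) in each library, stacked by gene. Smpd3, the lowest segment on the left, makes up 14.2 to 30.6% of the sphingomyelinase sum in the ST045849 libraries and 52.7 to 77.1% elsewhere, while Cers2 and Cers5 lead among the ceramide synthases in every library.

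The ceramide synthase genes differed from each other. Cers2, whose enzyme prefers very long fatty acids, and Cers5, whose enzyme prefers palmitate, were the 2 most abundant. Cers2 stood at 65.1, 105 and 79.2 FPKM in bleomycin plus ST045849 libraries, at 57.8, 69.8 and 65.0 FPKM in bleomycin libraries and at 63.4, 47.4 and 57.0 FPKM in vehicle libraries. Cers5 stood at 28.7, 34.7 and 44.0 FPKM, at 24.1, 30.0 and 29.2 FPKM and at 25.1, 22.9 and 24.4 FPKM in the same order of groups. For both, ST045849 libraries overlapped with bleomycin libraries and lay above all vehicle libraries. Differences for bleomycin plus ST045849 against bleomycin were 0.34 ± 0.22 for Cers2 and 0.34 ± 0.20 for Cers5, and against vehicle 0.54 ± 0.22 and 0.53 ± 0.20. For bleomycin plus ST045849 against bleomycin, Cers2 gave -0.02 after quantile normalization and 0.06 after scaling to TPM, and Cers5 gave 0.12 and 0.07.

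Cers6, another synthase for palmitate, was highest with bleomycin alone. It stood at 5.88, 3.20 and 5.52 FPKM in bleomycin plus ST045849 libraries, at 5.81, 6.70 and 7.83 FPKM in bleomycin libraries and at 3.01, 4.39 and 4.18 FPKM in vehicle libraries. Bleomycin libraries lay above all vehicle libraries (0.68 ± 0.23), and ST045849 libraries overlapped with both. The difference for bleomycin plus ST045849 against bleomycin was -0.43 ± 0.23, and -0.10 ± 0.18 with the length trend removed; Cers6 has 8875 bases of exon. Summed over Cers1 to Cers6 the level was 128 ± 22.1 FPKM with bleomycin plus ST045849, 103 ± 10.4 FPKM with bleomycin and 86.1 ± 8.76 FPKM with vehicle. Within that sum Cers2 held 64.7, 62.3 and 64.8% on average and Cers5 28.2, 26.9 and 28.2%, and the groups overlapped in both shares. Cers6 held 2.19 to 5.71% with bleomycin plus ST045849, 6.03 to 7.35% with bleomycin and 3.23 to 5.76% with vehicle. The bleomycin libraries thus lay above all others, but these shares were not corrected for the length trend.

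In the comparisons with ST045849 the sphingomyelin synthase genes differed less than Smpd3 did. Sgms1, whose enzyme works in the Golgi, stood at 11.4, 6.86 and 6.21 FPKM in bleomycin plus ST045849 libraries, at 10.98, 10.3 and 15.04 FPKM in bleomycin libraries and at 8.15, 9.60 and 7.90 FPKM in vehicle libraries. Bleomycin libraries lay above all vehicle libraries (0.45 ± 0.24). The difference for bleomycin plus ST045849 against bleomycin was -0.54 ± 0.24, of opposite direction in pair 1, and -0.13 ± 0.19 with the length trend removed (10546 bases of exon). Sgms2, whose enzyme is found mainly at the plasma membrane, ranged over 5.90 to 10.7 FPKM with bleomycin plus ST045849, 9.92 to 15.04 FPKM with bleomycin and 6.45 to 16.1 FPKM with vehicle, and all groups overlapped. Its differences were -0.51 ± 0.31 for bleomycin plus ST045849 against bleomycin and 0.26 ± 0.31 for bleomycin against vehicle.

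Among the 3 members of the sphingosine 1-phosphate branch, 1 lay apart with bleomycin against vehicle. Sgpl1, which encodes the lyase, stood at 17.8, 16.0 and 17.8 FPKM in bleomycin plus ST045849 libraries, at 15.4, 21.9 and 21.1 FPKM in bleomycin libraries and at 11.3, 13.0 and 13.2 FPKM in vehicle libraries. All 6 libraries that had received bleomycin were above the vehicle libraries, by 0.44 ± 0.19 with ST045849 and 0.59 ± 0.19 without it. With bleomycin plus ST045849 against bleomycin the difference was -0.15 ± 0.19, with an interval of -0.57 to 0.26. Of the kinase genes, Sphk1 varied most within groups: it ranged over 2.72 to 9.62 FPKM, 3.34 to 11.6 FPKM and 2.26 to 6.87 FPKM with bleomycin plus ST045849, bleomycin and vehicle, and its difference between the first 2 was 0.00 ± 0.48. Sphk2 ranged over 11.95 to 17.1 FPKM, 10.52 to 12.2 FPKM and 9.83 to 10.99 FPKM in the same order, with ST045849 libraries above all vehicle libraries (0.39 ± 0.19). Exons of Dbp and Rpl18 on the opposite strand cover 21.9% of the exon sequence of Sphk2. Dbp averaged 25.3, 19.2 and 8.96 FPKM and Rpl18 241, 129 and 218 FPKM with bleomycin plus ST045849, bleomycin and vehicle, so the level of Sphk2 is uncertain.

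**Figure D4:**
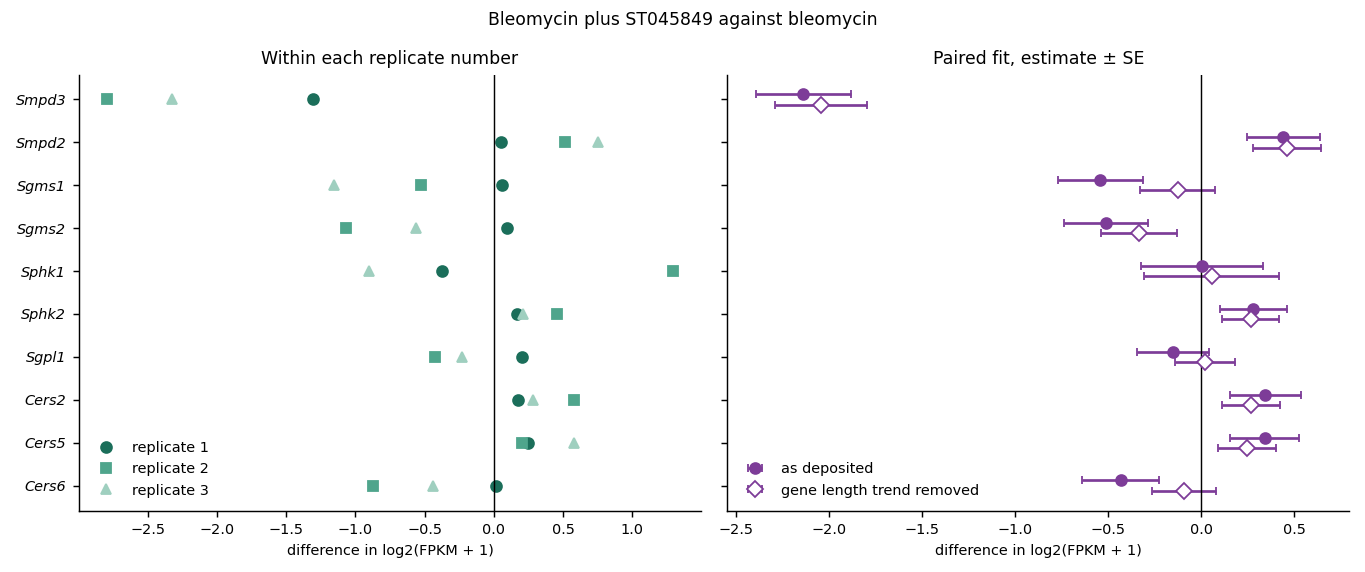
Bleomycin plus ST045849 against bleomycin: difference in log2(FPKM + 1) (x axis) of each gene within each replicate number (left), and the estimate of the fit paired by number with its SE, before and after removal of the gene length trend of each library (right). Smpd3 stays near -2 in both fits, and Sgms1 and Cers6 move from -0.54 and -0.43 to -0.13 and -0.10.

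Among the members other than Smpd3, direction ran with exon length. The 4 longest (Sgms1, Cers6, Sgms2 and Sgpl1, 6143 to 10546 bases) were lower on average with bleomycin plus ST045849 than with bleomycin, and the 4 shortest (Smpd2, Sphk2, Cers2 and Cers5, 3542 to 4468 bases) were higher. With the length trend removed, Sgms2 was at -0.33, Sgpl1 at 0.02, Smpd2 at 0.46, Sphk2 at 0.26, Cers2 at 0.27 and Cers5 at 0.25. Each ST045849 library was also compared with the bleomycin library of the same number. Smpd2, Sphk2, Cers2 and Cers5 were higher in 3 of 3 pairs, Smpd3 was lower in 3 of 3, and the other 5 were mixed. The share of all genes with the same direction in all pairs was not computed, so this count is a description only. Over the 18 alternatives the difference of Sphk2 ranged from 0.02 to 0.37 and that of Smpd2 from 0.20 to 0.60. Across the 9 libraries, which share their groups and their length slopes, log2 levels of Smpd2, Sphk2, Cers2 and Cers5 correlated with Smpd3 at r = -0.88, -0.76, -0.81 and -0.86, and those of the remaining 5 members at r from -0.23 to 0.51 (n = 9, a description). The median difference over the 10 members was -0.07 for bleomycin plus ST045849 against bleomycin, where the median of all 12441 genes was 0.06. It was 0.41 against vehicle (all genes 0.19), and 0.33 for bleomycin against vehicle (all genes 0.10).

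In the order of levels, Smpd3 led with bleomycin and vehicle and was in place 3 with bleomycin plus ST045849. In bleomycin plus ST045849 libraries the order of mean FPKM was Cers2 (83.0), Cers5 (35.8), Smpd3 (17.7), Sgpl1 (17.2), Sphk2 (13.9), Smpd2 (10.3), Sgms2 (8.81), Sgms1 (8.17), Sphk1 (7.0) and Cers6 (4.87). In bleomycin libraries Smpd3 (77.1) and Cers2 (64.2) were at the top, ahead of Cers5 (27.8) and Sgpl1 (19.5). In vehicle libraries Smpd3 (93.4), Cers2 (55.9), Cers5 (24.1) and Sgpl1 (12.5) came in the same order, with Smpd3 above Cers2 in 2 of 3 libraries. Smpd3 and Cers2 overlapped in both of these groups. With bleomycin plus ST045849 each gene from Smpd3 down overlapped with the next, and Cers5 lay just above Smpd3. With bleomycin the lower places were Sgms2 (12.8), Sgms1 (12.1), Sphk2 (11.1), Smpd2 (7.21), Sphk1 (6.95) and Cers6 (6.78), and with vehicle Sgms2 (11.02), Sphk2 (10.3), Sgms1 (8.55), Smpd2 (5.44), Sphk1 (4.21) and Cers6 (3.86). Among these lower places neighbours overlapped, except that Sphk2 lay above Smpd2 with bleomycin and that Sphk2 lay above Sgms1, and Sgms1 above Smpd2, with vehicle. Higher up, Cers2 lay above Cers5 in all groups, Cers5 above Sgpl1 with bleomycin and vehicle, and Sgpl1 above Sgms2 with bleomycin.

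The 4 members that were higher in all 3 pairs have start sites in RefSeq, whose promoter table (GRCm38.p6) matched 9 of the 10 members, all but Smpd3. For them the 250 bases before the most upstream start are shown 5′ to 3′, because these genes were higher where Smpd3 was lower. Capitals mark the GC box (GGGCGG or CCGCCC) and the E-box (CACGTG); the CRE (TGACGTCA) was also searched on both strands, and no match overlapped another kind of motif.
Smpd2 (chr10:41490341-41490590, minus strand): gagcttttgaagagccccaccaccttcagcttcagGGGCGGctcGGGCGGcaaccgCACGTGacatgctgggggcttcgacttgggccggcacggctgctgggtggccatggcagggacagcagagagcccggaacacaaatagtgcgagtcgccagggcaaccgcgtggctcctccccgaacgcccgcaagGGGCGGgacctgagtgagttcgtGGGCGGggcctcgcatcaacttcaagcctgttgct
Sphk2 (chr7:45718003-45718252, minus strand): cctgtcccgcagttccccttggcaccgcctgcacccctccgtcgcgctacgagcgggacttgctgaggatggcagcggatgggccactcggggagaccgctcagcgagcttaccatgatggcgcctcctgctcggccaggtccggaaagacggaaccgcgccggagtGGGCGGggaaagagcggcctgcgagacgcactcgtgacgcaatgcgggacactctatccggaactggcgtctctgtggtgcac
Cers2 (chr3:95314940-95315189, plus strand): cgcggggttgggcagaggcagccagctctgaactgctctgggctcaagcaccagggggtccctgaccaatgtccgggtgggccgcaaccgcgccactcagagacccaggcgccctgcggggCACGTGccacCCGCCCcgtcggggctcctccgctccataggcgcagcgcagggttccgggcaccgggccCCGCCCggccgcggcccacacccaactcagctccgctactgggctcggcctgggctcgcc
Cers5 (chr15:99772516-99772765, minus strand): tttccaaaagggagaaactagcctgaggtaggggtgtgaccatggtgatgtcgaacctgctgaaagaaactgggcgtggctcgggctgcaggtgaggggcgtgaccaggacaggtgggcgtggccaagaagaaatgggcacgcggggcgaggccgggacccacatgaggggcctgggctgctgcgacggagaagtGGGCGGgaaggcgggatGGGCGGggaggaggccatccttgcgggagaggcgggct
Over all 23 windows of the 9 matched members, 10 held a GC box and 6 an E-box, where 32.7% and 6.02% of all 32851 windows of this length in the table did. By gene, 7 of the 9 members had a GC box and 5 an E-box in at least 1 window. Genes differ in their number of windows and no share by gene was computed, so these counts cannot be set against the shares by window. Overlapping windows of Sphk1 held the same E-box, which was counted for each of them. Of the windows shown, Smpd2 held 4 GC boxes, Cers2 and Cers5 2 each and Sphk2 1, and Smpd2 and Cers2 held an E-box. None of the 23 windows of the 9 members held the CRE, which 1.55% of all windows did. A match of letters is a description and not a site of binding.

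Other genes of sphingolipid metabolism were read from 6 textbook lists with 58 genes in the files, of which 41 passed the filter and 17 did not. With bleomycin 37 of the 41 were higher than with vehicle (62.0% of all genes were), 4 rose and 1 fell, beside 4.2% of all genes that rose and 0.675% that fell. With bleomycin plus ST045849 against vehicle 35 were higher (65.2% of all genes), 11 rose and none fell, beside 8.11% of all genes that rose. With bleomycin plus ST045849 against bleomycin none passed in either direction and 25 were higher (55.1% of all genes); the paired fit called 1, the neutral ceramidase gene Asah2 (named after its values were seen), which fell by 0.87 ± 0.19 (limma adjusted p = 0.0189), and -0.41 (adjusted p = 0.156) with the length trend removed. These directions depended on scaling: the counts of higher genes in these 3 comparisons (bleomycin against vehicle, then both agents against vehicle, then both against bleomycin) were 33, 27 and 23 with median-of-ratios scaling and 38, 25 and 11 on the TPM scale. In that order, the median difference of the 41 was 0.43, 0.49 and 0.12 where that of all genes was 0.10, 0.19 and 0.06.

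Of 10 genes of glycosphingolipid breakdown, mostly lysosomal, 2 rose with bleomycin and 5 rose with bleomycin plus ST045849 against vehicle. Gm2a, the activator protein of ganglioside breakdown, stood at 21.0 ± 4.16, 21.7 ± 3.00 and 8.76 ± 0.56 FPKM with bleomycin plus ST045849, bleomycin and vehicle. It rose by 1.16 ± 0.20 with both agents and by 1.21 ± 0.20 with bleomycin (limma adjusted p = 0.00657 and 0.00675). Gla, the alpha-galactosidase gene, rose by 1.21 ± 0.18 and by 0.79 ± 0.18 (adjusted p = 0.00377 and 0.0308). The second call was lost when any 1 vehicle or bleomycin library was left out (adjusted p up to 0.144). It was also lost under median-of-ratios and quantile scaling (limma adjusted p = 0.0669 and 0.0894). Hexa, the alpha subunit of beta-hexosaminidase, stood at 198 ± 16.1, 149 ± 11.4 and 91.5 ± 7.89 FPKM and rose by 1.11 ± 0.19 with bleomycin plus ST045849 against vehicle (adjusted p = 0.00657). Psap, the saposin precursor and the most abundant of the list, stood at 351 ± 36.2 FPKM with bleomycin plus ST045849 and 323 ± 38.7 FPKM with bleomycin (0.12 ± 0.21, adjusted p = 0.726).

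In the list of sphingomyelin turnover and ceramide transport, 1 of 7 tested genes rose with bleomycin and 2 with bleomycin plus ST045849 against vehicle. Smpdl3a, a relative of acid sphingomyelinase that acts on nucleotides rather than sphingomyelin, stood at 43.2 ± 5.75, 38.0 ± 1.24 and 12.8 ± 1.80 FPKM with bleomycin plus ST045849, bleomycin and vehicle. It rose by 1.68 ± 0.19 with both agents and by 1.51 ± 0.19 with bleomycin (limma adjusted p = 0.00107 and 0.00256). Smpd1 rose by 0.93 ± 0.18 with bleomycin plus ST045849 against vehicle (adjusted p = 0.0127), a call lost without vehicle library 2 or 3 (adjusted p = 0.0598 and 0.0698) and after quantile normalization (0.61, adjusted p = 0.0666). With bleomycin against vehicle Smpd1 differed by 0.67 ± 0.18 (adjusted p = 0.0663). It was called there under 4 of 18 alternatives, among them the TPM scale and removal of the length trend (limma adjusted p = 0.042 and 0.0329). With bleomycin plus ST045849 against bleomycin it differed by 0.26 ± 0.18 (adjusted p = 0.367).

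For de novo ceramide synthesis, 0 of 10 genes passed with bleomycin and 3 rose with bleomycin plus ST045849 against vehicle. Ormdl3, a brake on serine palmitoyltransferase, stood at 115 ± 13.9, 82.4 ± 9.10 and 57.7 ± 4.90 FPKM and rose by 0.98 ± 0.19 (limma adjusted p = 0.0126, and 0.0514 and 0.0705 without vehicle library 2 or 3). After quantile normalization its difference was 0.61 (adjusted p = 0.0584). Kdsr, which reduces the first product of the pathway, rose by 0.75 ± 0.21 (adjusted p = 0.0456), a call lost in 7 of 9 fits that left out a library (adjusted p up to 0.185), with no filter (0.0933) and under median-of-ratios, quantile and TPM scaling (0.0876, 0.0715 and 0.112). Of 7 tested glycosphingolipid synthesis genes, 1 rose and 1 fell with bleomycin, and 1 rose with both agents. B4galnt1, which makes the gangliosides GM2 and GD2, stood at 5.87 ± 1.39, 4.65 ± 0.32 and 1.55 ± 0.22 FPKM. It rose by 1.42 ± 0.19 with both agents and by 1.15 ± 0.19 with bleomycin (limma adjusted p = 0.0022 and 0.00662). Exons of Slc26a10 on the opposite strand cover 20.7% of the exon sequence of B4galnt1, so its level is uncertain to that extent. Gal3st1, the sulfotransferase of sulfatide synthesis, stood at 5.48 ± 1.20, 3.47 ± 0.30 and 7.17 ± 0.52 FPKM and fell by 0.87 ± 0.19 with bleomycin (adjusted p = 0.0258, and 0.0745 to 0.103 when any 1 vehicle or bleomycin library was left out). Ugcg, the glucosylceramide synthase gene, differed by -0.59 ± 0.34 with bleomycin plus ST045849 against bleomycin (adjusted p = 0.299).

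None of the 4 tested ceramidase and ceramide kinase genes passed in any comparison, apart from Asah2 in the paired fit, and none of the 3 tested genes of sphingosine 1-phosphate removal, export and reception did as fitted. Asah1, the acid ceramidase gene, stood at 51.3 ± 17.1, 48.7 ± 10.9 and 41.7 ± 8.12 FPKM with bleomycin plus ST045849, bleomycin and vehicle, and its adjusted p by limma ranged from 0.566 to 0.94. Aldh3a2, which oxidises the fatty aldehyde left by the lyase, stood at 14.7 ± 3.42, 12.3 ± 1.97 and 8.51 ± 1.27 FPKM (0.71 ± 0.21 for bleomycin plus ST045849 against vehicle, adjusted p = 0.0586, but 0.0384 with the length trend removed and 0.0348 without ST045849 library 1).

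**Figure D5:**
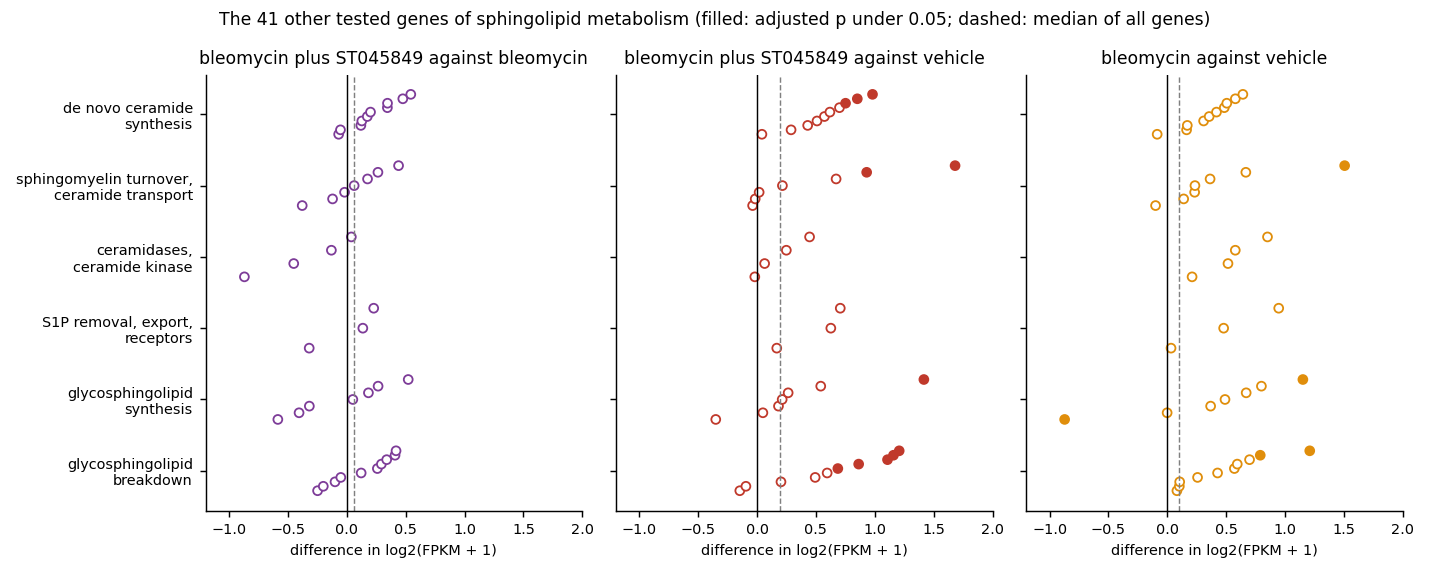
Difference in log2(FPKM + 1) (x axis) of each of the 41 other tested genes of sphingolipid metabolism, by list (y axis); filled points have a limma adjusted p under 0.05 over all genes, and the dashed line is the median of all genes. There are 0, 11 and 5 filled points in the comparisons from left to right.

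The genes whose log2 levels followed Smpd3 most closely over the 9 libraries were Adcy7 (r = 0.98), Rassf4 (r = 0.98), Cad (r = 0.96), Col5a1 (r = 0.96) and Gm13293 (r = 0.96), with no statement on shared function. These are the 5 highest correlations among the tested genes, taken over libraries that share their groups. Col5a1, a fibrillar collagen gene, averaged 168 FPKM with bleomycin plus ST045849, 239 FPKM with bleomycin and 237 FPKM with vehicle. Cad, which encodes the enzyme that starts pyrimidine synthesis, averaged 9.13, 15.8 and 18.0 FPKM, and the adenylyl cyclase gene Adcy7 0.706, 1.99 and 2.58 FPKM. Their differences for bleomycin plus ST045849 against bleomycin were -0.51 ± 0.20, -0.74 ± 0.18 and -0.83 ± 0.19, each smaller in size than that of Smpd3.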

How the data were processed

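RNA was measured in 9 libraries of mouse articular chondrocytes, made with a stranded mRNA kit per the labels' protocols. The submitters' processing notes name Trimmomatic, STAR and the build GRCm38, without versions. The deposited values are FPKM per gene, made by the authors; which program counted, with what annotation, denominator and strand setting, is not given in the sources used here. FPKM hold no counts, so depth is known only relative to other libraries: 26.9 to 29.9% of low values times exon length were whole multiples of a step to within 0.02, where even spacing gives 4%. Exon lengths and coordinates came from GENCODE vM21 (GRCm38), which gave a length for 99.5% of identifiers.

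The members and gene lists were chosen with earlier results of these data known. Values were taken as log2(FPKM + 1), and 1 model over all 9 libraries was fitted across 12441 genes with limma 3.58.1 in R 4.3.3 (trended moderated variances; 6 residual and 4.95 prior degrees of freedom), with Benjamini-Hochberg adjustment over all tested genes and a call at an adjusted p under 0.05. Named pathway genes are, for each list and comparison, up to 2 called rises and 2 called falls by adjusted p, otherwise the gene with the highest mean. Genes like Smpd3 are the 5 with the highest Pearson r. Tested on simulated data (12441 genes, 100 of them changed at each size), the fit recovered 38% of 2-fold and 86% of 4-fold changes for bleomycin plus ST045849 against bleomycin, with 6 false calls.

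Pairing was checked by correlating deviations from group means. Between bleomycin plus ST045849 and bleomycin, equal numbers gave 0.466, 0.481 and 0.500 and unequal numbers -0.320 to -0.172. Deviations of a group's libraries from their mean cancel out, so positive values at equal numbers make those at unequal numbers negative in sum. The negative values are therefore not separate evidence of pairing. A paired fit is given for that comparison as an alternative, chosen from the same values that it fits. No label states what the numbers share, and the part of library length slopes in these correlations was not tested. Alternatives were a pseudocount of 0.1, no filter, median-of-ratios, quantile and TPM scaling, replicate blocks, removal of the length trend (loess, span 0.5) and leaving out each library.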

Additional observations from a re-analysis of the deposited data

How the results depend on the processing

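Of 18 alternatives, 6 leave a member's difference as it is by construction. Over the rest, the differences of Smpd3 ranged from -2.53 to -1.87 for bleomycin plus ST045849 against bleomycin, from -2.78 to -2.12 against vehicle and from -0.53 to -0.02 for bleomycin against vehicle. Of the other members, Sphk1 (0.00 as reported) changed sign under 7 of 18 alternatives for bleomycin plus ST045849 against bleomycin, Sgpl1 under 2 and Cers2 under 1. Sgms1 did so under 3 and Sgms2 under 1 for bleomycin plus ST045849 against vehicle, and Sphk2 under 2 and Sgms2 under 1 for bleomycin against vehicle. Counts of called genes moved more, and the cause was not tested. For bleomycin against vehicle, 607 genes were called, 1361 with a replicate block and the length trend removed in a fit of 2 groups, and 184 to 829 when 1 library was left out. The 5 pathway genes called became 8 with the replicate block in that fit, 8 with the length trend removed, 12 with both, and 3 to 7 with 1 library left out. For bleomycin plus ST045849 against bleomycin, the 0 genes called became 1 with no filter, 2 with quantile normalization, 2 with the length trend removed, 2403 in the fit of 2 groups with a replicate block, 159 with that block and the length trend removed, and 0 to 2225 with 1 library left out (2225 without ST045849 library 1). Pathway genes called were 0, and 1 with the replicate block in the fit of 2 groups, and 0 to 1 with 1 library left out. For bleomycin plus ST045849 against vehicle, 1225 genes were called, 651 with no filter, 710 on the TPM scale, 199 in the fit of 2 groups with a replicate block, 376 with the length trend removed as well, and 286 to 3060 with 1 library left out. The 11 pathway genes called became 7 with median-of-ratios scaling, 5 with quantile normalization, 7 on the TPM scale, 2 with the replicate block in the fit of 2 groups, 3 with that block and the length trend removed, and 5 to 14 with 1 library left out. In the fit of all 9 libraries the replicate block gave 733, 0 and 1386 genes in these 3 comparisons. A pairing with vehicle by number was not clear. Equal numbers correlated at -0.071, -0.026 and 0.546 for bleomycin against vehicle. For bleomycin plus ST045849 against vehicle they correlated at -0.519, -0.279 and 0.424. ST045849 libraries 1 and 2 correlated at 0.567 and 0.568 with vehicle libraries 2 and 1. Slopes on exon length were -0.05 and -0.82 in ST045849 libraries 1 and 2, and -0.36 and 0.22 in vehicle libraries 1 and 2. The part of these slopes in the correlations was not tested, so the check cannot settle a pairing. Counts against vehicle under a block rest on the replicate numbers, and the cause of the fall to 199 was not tested. In the same order, the median difference of all genes was 0.10, 0.06 and 0.19, against -0.02, -0.01 and 0.00 with median-of-ratios scaling, -0.03, 0.03 and 0.02 with quantile normalization and 0.13, -0.19 and -0.03 on the TPM scale. With FPKM alone the counting error of low genes is unknown.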

Other observations

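Some genes of sphingosine 1-phosphate signalling lay below the filter and were not tested. The receptor gene S1pr3 was listed at 0.534 ± 0.104 FPKM with bleomycin plus ST045849, 0.877 ± 0.144 FPKM with bleomycin and 0.168 ± 0.019 FPKM with vehicle (SD, n = 3 each), and the 3 groups did not overlap. Spns2, which encodes the exporter of sphingosine 1-phosphate, was listed at 0.646 ± 0.244, 0.779 ± 0.282 and 0.117 ± 0.016 FPKM in the same order, with both bleomycin groups above vehicle. S1pr2, the one receptor gene of this family that passed the filter, stood at 6.23 ± 1.12, 5.53 ± 0.45 and 5.41 ± 0.75 FPKM and did not pass the test in any comparison (limma adjusted p from 0.553 to 0.966). These genes were named after their values were seen. Among tested genes the libraries of 2 groups lay apart for 25.2 to 28% in each comparison, and this share was not computed for genes below the filter. Mfsd2b and Sgpp2, also below the filter in this list, overlapped in all comparisons. The counting error of S1pr3 and Spns2 at these low levels is unknown.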
